A study of Mus musculus with 11 samples.

Results

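Unnamed loci near named genes are rows of the 2 expression tables that carry no gene name although their interval lies 10 kb or less from the interval of a row that has one. The rule used position and the missing name only, and no measured level. An unnamed row is present only where transcription was assembled, so its entry to a table can depend on the genotype in which it is higher. In the ileum the rule took 2145 of 3505 unnamed rows, which is 13% of all 16521 rows. In the colon it took 3126 of 4815 unnamed rows, 17.2% of all 18122. The ileum loci had 1387 different nearest named rows, of which 943 had 1 unnamed locus beside them and 173 had at least 3. The colon loci had 1766 different nearest named rows, of which 1076 had 1 and 323 had at least 3. The remaining 1360 ileum and 1689 colon unnamed rows lay farther from any named row.

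The tables come from intestinal epithelial cells (IECs), shaken off the ileum and colon with EDTA from male mice aged 10 weeks. O-GlcNAc transferase (OGT) adds the sugar N-acetylglucosamine to serine and threonine residues of nuclear and cytosolic proteins. In the IEC-OGT KO mice, floxed Ogt was deleted by a Cre recombinase under the Villin promoter, which is active in epithelial cells of the gut and not in their underlying stroma; both genotypes were on the C57BL/6 background. The series holds 11 libraries, 2 WT and 3 IEC-OGT KO of the ileum and 3 WT and 3 IEC-OGT KO of the colon, and the number of mice behind each library is not stated. The tables give 1 value per genotype, so the spread between libraries and the depth are unknown, and every difference below is a description without a test. A level is a log2 FPKM, the number of sequenced fragments scaled to the length of the locus and to the size of the library, and a log2 change is the IEC-OGT KO level minus the WT level.

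A locus without a name in such a table is a stretch of assembled transcription that matched no gene of the annotation used. RNA outside annotated genes has several known sources. Many mammalian promoters start transcription in both directions and give short RNAs upstream of the gene, polymerase can run past the end of a gene before it stops, enhancers are transcribed, and annotations miss exons, long noncoding RNAs and copies of transposable elements. In bulk RNA, a lower level in 1 genotype can come from fewer cells of a type or from less RNA per cell, and these cannot be told apart.

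The sequences of 5 loci are given as examples of what can lie under or beside an unnamed row. They were chosen after the values were seen, 4 because the unnamed locus reaches into the promoter of its neighbour and 1 because it has the highest level of all. The promoters are the 250 bases before the RefSeq start in GRCm38.p6, and the transcript is from GENCODE vM21 (GRCm38, the same assembly as mm10). All are written 5′ to 3′ on the strand of the named gene, and capitals mark the bases inside the interval of the unnamed locus. The Tgm3 promoter is chr2:130012090-130012339 (plus strand), with 130 bases inside the unnamed locus. The Hoxd13 promoter is chr2:74667975-74668224 (plus), with 152 bases inside. The Npc1l1 promoter is chr11:6230246-6230495 (minus), with 90 bases inside. The Epc2 promoter is chr2:49451236-49451485 (plus), with 156 bases inside. Bc1 is chr7:144914470-144914637 (plus), with 77 bases inside.
Tgm3 promoter: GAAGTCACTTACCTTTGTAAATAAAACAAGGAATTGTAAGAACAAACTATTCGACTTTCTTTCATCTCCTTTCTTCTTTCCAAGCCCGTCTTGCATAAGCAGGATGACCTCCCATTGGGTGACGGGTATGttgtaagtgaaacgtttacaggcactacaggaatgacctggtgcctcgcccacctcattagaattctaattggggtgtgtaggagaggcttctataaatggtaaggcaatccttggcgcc
Hoxd13 promoter: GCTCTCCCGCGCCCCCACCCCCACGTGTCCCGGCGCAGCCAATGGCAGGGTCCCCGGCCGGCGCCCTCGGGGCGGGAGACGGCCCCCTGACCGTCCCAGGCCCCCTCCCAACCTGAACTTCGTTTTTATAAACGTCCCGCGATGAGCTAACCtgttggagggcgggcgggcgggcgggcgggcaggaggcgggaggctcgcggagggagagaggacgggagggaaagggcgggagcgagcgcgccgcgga
Npc1l1 promoter: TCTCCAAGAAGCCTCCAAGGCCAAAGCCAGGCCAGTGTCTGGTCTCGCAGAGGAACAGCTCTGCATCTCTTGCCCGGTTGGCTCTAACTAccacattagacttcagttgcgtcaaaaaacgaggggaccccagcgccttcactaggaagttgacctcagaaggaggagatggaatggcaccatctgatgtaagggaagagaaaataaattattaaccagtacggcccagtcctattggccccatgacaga
Epc2 promoter: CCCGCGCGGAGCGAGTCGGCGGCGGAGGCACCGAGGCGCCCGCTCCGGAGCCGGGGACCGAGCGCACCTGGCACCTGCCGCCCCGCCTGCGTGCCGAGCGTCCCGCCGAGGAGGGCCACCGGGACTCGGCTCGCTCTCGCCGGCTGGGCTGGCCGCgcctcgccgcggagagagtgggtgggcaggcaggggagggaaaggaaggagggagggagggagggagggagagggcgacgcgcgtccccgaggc
Bc1 transcript: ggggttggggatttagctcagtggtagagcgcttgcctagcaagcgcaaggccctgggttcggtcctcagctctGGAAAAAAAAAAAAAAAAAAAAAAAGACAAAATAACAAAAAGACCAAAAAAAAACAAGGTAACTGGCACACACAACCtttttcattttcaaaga

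The Epc2 and Hoxd13 windows are rich in C and G (79.2% and 74.4% of bases, with 36 and 31 CG dinucleotides), whereas the Tgm3 window holds 44% and 6 and the Npc1l1 window 51.2% and 6. The loci they belong to moved in different directions. The locus in the Tgm3 promoter was at 2.15 in WT colon and -1.75 in IEC-OGT KO colon, and Tgm3, which encodes a transglutaminase that crosslinks proteins, went from 7.88 to 5.08. The locus in the Npc1l1 promoter went from -2.05 to 1.95 in the ileum, and Npc1l1, the transporter that takes up cholesterol, from 4.53 to 7.04. The locus in the Epc2 promoter was at -0.15 and 2.36 in the ileum, while Epc2, a subunit of a histone acetyltransferase complex, was at 2.83 and 2.73. In 3 of these 4 promoters, Epc2 being the other, the gene differed in the same direction as the unnamed locus.

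The unnamed loci were short and weakly expressed beside genes. Their median width was 770.5 bases in the ileum and 939 bases in the colon, with a range of 77 to 597825 and of 78 to 596231. An interval can be shared by several rows, up to 43 in ileum and 52 in colon, and there the position of a single row is not resolved. The nearest interval held several named rows for 375 ileum and 568 colon loci, of which 1 was taken. An interval exactly shared with a named row was found for 259 ileum and 504 colon loci, and 46.8% and 49.1% of all loci lay within 1 kb of the named row, those included. Outside shared intervals 1107 ileum loci lay upstream of the named gene by its annotated strand and 762 downstream, and in the colon 1448 and 1153.

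Against the GENCODE annotation, most loci outside shared intervals did not overlap a gene. In the ileum 1021 lay outside any gene, 320 in an exon of a long noncoding RNA, 209 in an exon of the named neighbour itself, 203 in an intron, 77 in an exon of another coding gene and 51 in an exon of a pseudogene. In the colon these counts were 1488, 408, 212, 330, 104 and 74. The annotation used for the tables and GENCODE vM21 are of different make, so a locus in an exon of its neighbour is a piece that one of them joins to the gene and the other does not.

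Promoters reached by these loci were rich in CG dinucleotides. Of the 32851 RefSeq promoter windows of 250 bases before to 50 bases after a start, 263 were overlapped by an ileum locus and 332 by a colon locus outside shared intervals. The median window overlapped in the ileum held 24 CG dinucleotides and 61.3% G or C, in the colon 23 and 61.7%, and over all windows 7 and 52.7%. The letters GGGCGG, the core of the site bound by Sp1, were on either strand in 61.2% of the overlapped ileum windows and 59.6% of the colon windows, against 35.7% of all. The letters TATAAA were in 9.13% and 6.33% of them, against 13.6% of all. A match of letters is a description of the window and not a bound site, and the shares were not compared with those of other expressed promoters.

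**Figure D1:**
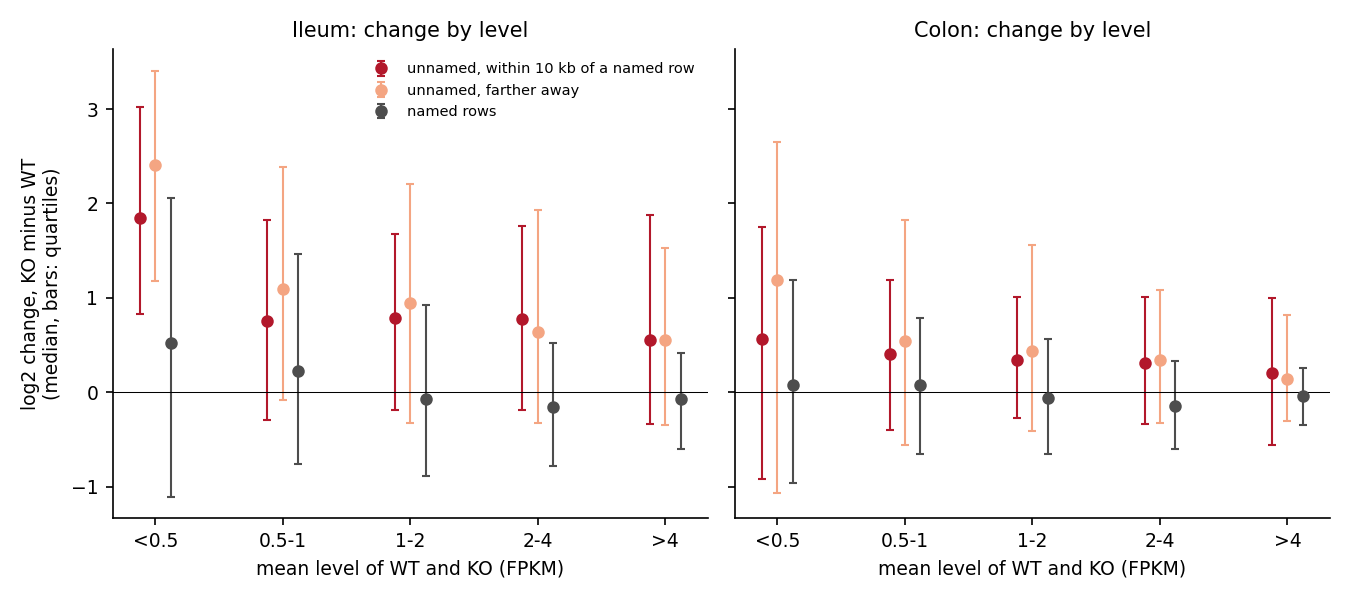
Median log2 change (IEC-OGT KO minus WT, vertical axis) by mean level in FPKM (horizontal axis) for unnamed loci within 10 kb of a named row (red), unnamed rows farther away (orange) and named rows (grey), with bars from the lower to the upper quartile over loci. Unnamed loci near genes have a median above 0 in every class, highest below 0.5 FPKM (1.85 in ileum and 0.56 in colon), and named rows lie near 0 from 1 FPKM upward.

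Unnamed loci near genes were more often higher than lower in IEC-OGT KO mice, in the ileum most. With both genotypes above 0 (2026 loci), the median level in the ileum was -0.87 in WT and -0.20 in IEC-OGT KO, and the median log2 change was 1.01 with quartiles of -0.14 and 2.12. In the ileum 1019 loci (50.3%) were more than 2-fold higher and 251 (12.4%) more than 2-fold lower, beside 23.1% and 14.3% of all rows of that table. In the colon (3106 loci) the median level was -0.65 in WT and -0.31 in IEC-OGT KO, with a median log2 change of 0.38 and quartiles of -0.48 and 1.26. There 965 loci (31.1%) were more than 2-fold higher and 415 (13.4%) lower, beside 14.5% and 9.93% of all rows.

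Unnamed rows farther from genes were also more often higher. They had a median log2 change of 1.12 in ileum and 0.49 in colon, with 52.7% and 38.9% more than 2-fold higher. Named rows had medians of -0.06 and -0.04, and 16% and 7.64% of them were more than 2-fold higher. The median over all rows was 0.06 in ileum and 0.01 in colon. The median log2 change of unnamed loci near genes was highest in the lowest class of level. Below 0.5 FPKM it was 1.85 in the ileum and that of named rows 0.53, and above 4 FPKM they were 0.55 and -0.08. In the colon the values were 0.56 and 0.08 below 0.5 FPKM, and 0.20 and -0.04 above 4 FPKM. At 0.5 to 1, 1 to 2 and 2 to 4 FPKM the unnamed loci had 0.755, 0.79 and 0.775 in the ileum, with no trend, and 0.41, 0.34 and 0.31 in the colon. Whether depth or the composition of the libraries has a part in the changes of weak loci was not tested. Nor was the part of loci that entered a table only through the genotype in which they are higher.

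Marker genes of other cells moved in the same libraries. The epithelial markers Epcam (10.27 in WT and 9.87 in IEC-OGT KO ileum, 10.10 and 9.88 in colon) and Krt8 were high in each. In the ileum the T cell marker Cd3e was at 1.97 and 4.24 and the leukocyte marker Ptprc at 0.15 and 2.31, and the colon values were 2.13 and 1.13 and 0.66 and 0.05. The haemoglobin row Hba-a1,Hba-a2 was at -0.17 and 4.99 in the ileum and at 1.98 and 5.40 in the colon. The muscle markers Acta2, Des and Myh11 have no row in either table. The stromal marker Vim was at 3.38 and 3.61 in the ileum and at 2.30 and 2.63 in the colon. Col1a1 was at 0.27 and -1.80 in the ileum and had no colon row. The endothelial marker Pecam1 was at -0.63 and -1.16 and at -0.27 and -2.20. The myeloid marker Lyz2 was at 0.48 and 1.48 and at -0.15 and 0.08. Cd68 was at -1.67 and -0.04 in the ileum, and in the colon it shares a row with Eif4a1. Ogt was at 3.39 and 1.97 in the ileum and 5.02 and 3.03 in the colon, lower in IEC-OGT KO in both. Markers of epithelial cell types differed too. In the ileum the colon markers Car1 (12.53 and 7.41), Aqp8 (6.14 and -1.96) and Slc26a3 (6.87 and 5.01) were lower in IEC-OGT KO, and the ileal markers Fabp6 (12.02 and 13.91) and Slc10a2 (5.24 and 6.96) and the Paneth cell genes Lyz1 (5.79 and 9.87) and Defa24 (9.49 and 12.91) were higher. In the colon Fabp6 was at 3.54 and 6.54, Aqp8 at 7.51 and 6.41 and Slc26a3 at 8.05 and 6.98, and Car1 had no colon row. What part these cell types, leukocytes, stroma or blood have in the levels of the unnamed loci was not tested.

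The changes of unnamed loci followed those of their neighbours in part. Over 2023 ileum pairs in which both were above 0, 1305 (64.5%) had the same direction, with a Pearson r of 0.41 and a Spearman rho of 0.41 across loci. Over 3106 colon pairs, 1878 (60.5%) had the same direction, with an r of 0.41 and a rho of 0.36. Named rows paired with their nearest other named row within 10 kb gave 56.7% and r = 0.25 over 8436 ileum pairs and 56.5% and r = 0.25 over 8835 colon pairs. These correlations have no p, because the points share libraries and many share a named row or an interval.

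**Figure D2:**
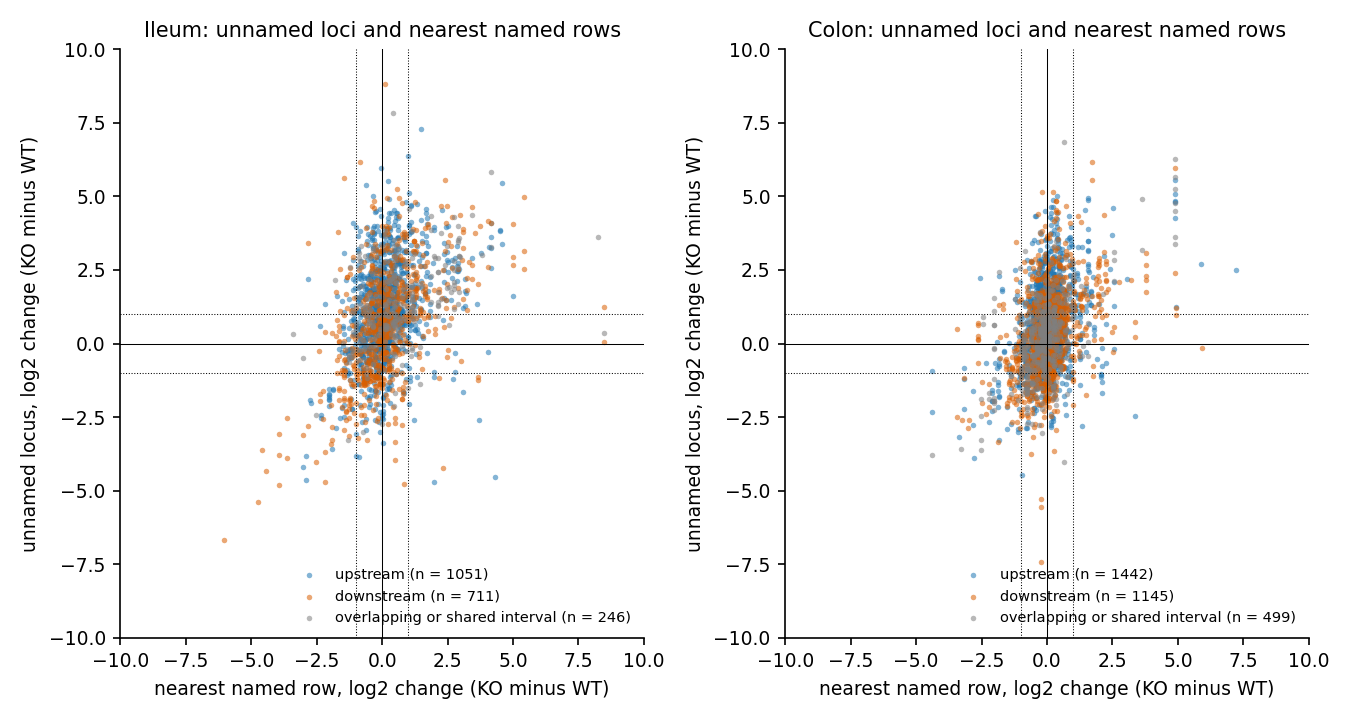
Log2 change of each unnamed locus (vertical axis) against that of its nearest named row (horizontal axis), IEC-OGT KO minus WT, with 1 point per pair for loci upstream (blue), downstream (orange) and in a shared or overlapping interval (grey); dotted lines mark 2-fold. Of 2023 ileum pairs 347 and of 3106 colon pairs 223 lie past 2-fold in the same direction for both, and 55 and 31 in opposite directions.

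Pairs that moved together past 2-fold numbered 347 in the ileum (17.2%; 268 higher and 79 lower), where 7.55% of the named pairs did. Pairs past 2-fold in opposite directions numbered 55 (2.72%), beside 2.60% of the named pairs. In the colon 223 pairs (7.18%; 138 higher and 85 lower) moved together, beside 2.67%, and 31 (0.998%) apart, beside 0.475%. Unnamed loci of either tissue were more than 2-fold higher more often than named rows. That alone puts more of their pairs past 2-fold together. The shares were not adjusted for it, so no closer tie than between named rows is read from them. Seen from the gene, 77.9% of the unnamed loci were more than 2-fold higher where the ileum neighbour was (344 pairs), 48.0% where it stayed within 2-fold (1478 pairs) and 19.4% where it was lower (201 pairs). The share of loci that were lower went the other way, 4.65%, 10.6% and 39.3%. In the colon, 68.0%, 29.6% and 11.5% were higher, and 4.93%, 11.8% and 46.4% lower, over 203, 2720 and 183 pairs.

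Levels themselves were hardly related. The unnamed locus was a median of 4.46 log2 units below its neighbour in WT ileum and 3.73 below in IEC-OGT KO ileum, and 4.44 and 4.01 below in the colon. It was above its neighbour in WT at 189 ileum (9.34%) and 199 colon (6.41%) pairs. The r of the levels was 0.02 in WT and 0.11 in IEC-OGT KO ileum, and 0.08 and 0.14 in the colon.

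**Figure D3:**
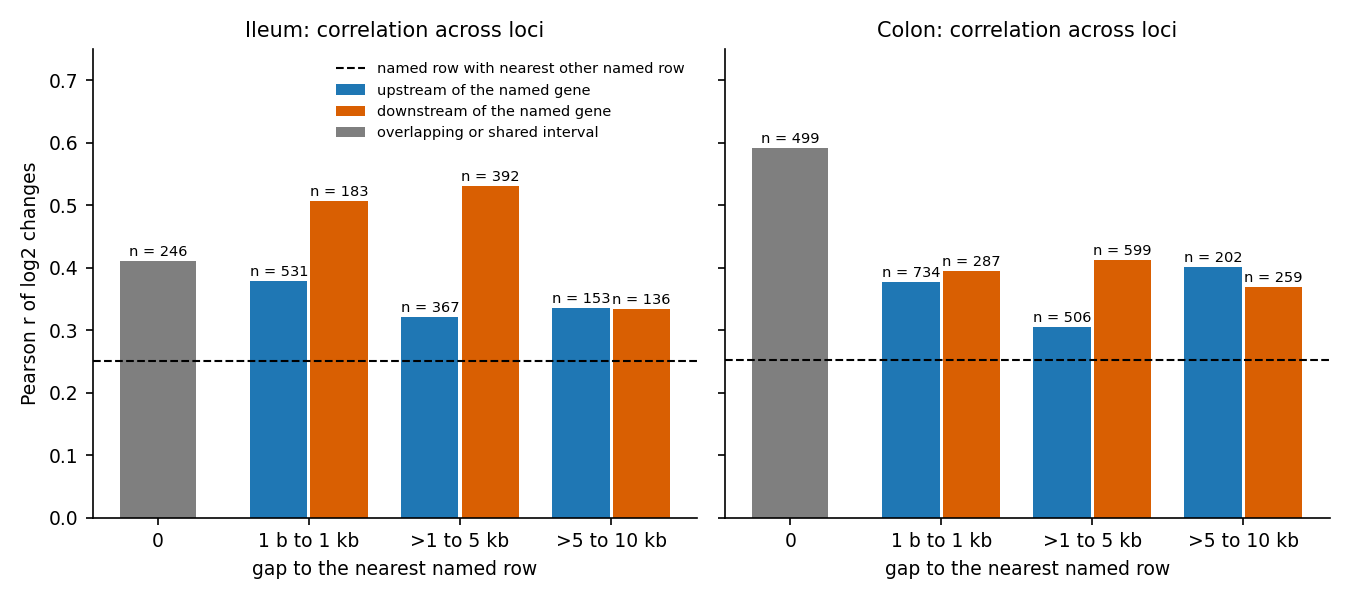
Pearson r across loci between the log2 changes of an unnamed locus and its nearest named row (vertical axis) by gap between their intervals (horizontal axis), upstream (blue), downstream (orange) or in a shared or overlapping interval (grey), with the number of pairs above each bar; the dashed line is the r of named rows with their nearest other named row (0.25 in both tissues). Downstream loci of the ileum within 5 kb have the highest bars there (0.51 and 0.53), and in the colon the shared intervals do (0.59).

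The relation differed in value by side and by annotation. In the ileum r was 0.49 over 711 downstream loci and 0.35 over 1051 upstream loci, and in the colon 0.40 (1145) and 0.35 (1442). Upstream loci were more often higher: 54.7% were more than 2-fold higher and 9.60% lower in the ileum, where downstream loci had 41.9% and 19.4%. In the colon these shares were 36.3% and 11.0% upstream and 30.0% and 15.6% downstream. At 5 to 10 kb r was still 0.34 upstream and 0.33 downstream in the ileum, and 0.40 and 0.37 in the colon. Loci in an exon of their own neighbour had the highest r, 0.80 over 202 ileum pairs and 0.63 over 212 colon pairs, and their median log2 change was close to 0 (-0.04 and 0.08). Loci outside any gene had r = 0.34 and 0.36 with medians of 1.21 and 0.57, and loci in an exon of another coding gene 0.06 (72 pairs) and 0.16 (103 pairs). Where a second named row also lay within 10 kb (808 ileum and 1305 colon loci), r was 0.29 with the nearest and 0.26 with the second in the ileum, and 0.25 and 0.28 in the colon.

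Some ileum loci could be followed in the colon. An ileum locus overlapped an unnamed row of the colon in 1327 cases, and 1288 of these had both genotypes above 0 in both tables. These 1288 pairs rest on 1006 different colon rows, so some colon rows enter several times. Of them 75.4% had the same direction, with r = 0.59 and rho = 0.57 across loci. More than 2-fold higher in both were 313, lower in both 55, and in opposite directions 8 and 5. The median log2 change was 0.96 in ileum and 0.53 in colon. Of all loci above 0, 73.1% in the ileum and 61.4% in the colon were higher by any amount, and 50.3% and 31.1% past 2-fold. These shares by themselves make many pairs agree. The agreement of named rows between tissues was not counted, so nothing particular to these loci is read from the values. The tables were normalised separately, and whether both tissues came from the same mice is not stated.

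**Figure D4:**
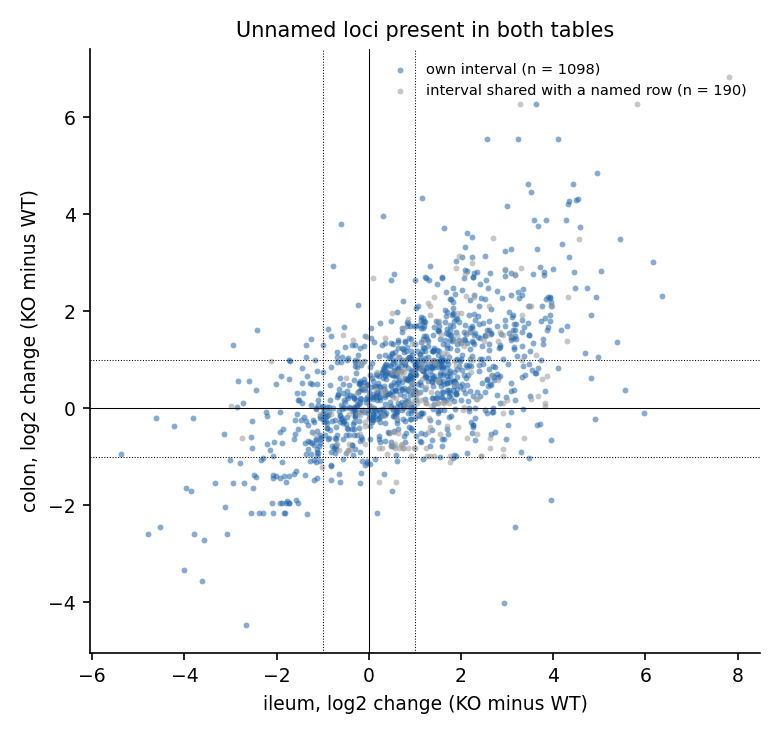
Log2 change (IEC-OGT KO minus WT) of unnamed rows of the colon (vertical axis) against the overlapping unnamed locus near a gene in the ileum (horizontal axis), 1 point per overlapping pair. The 1288 pairs have r = 0.59, with 313 more than 2-fold higher in both tissues and 55 lower in both.

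Several genes had a row of unnamed loci beside them that differed together. Among named rows with at least 3 unnamed loci above 0, all loci were higher at 93 of 155 in the ileum and all lower at 20, and in the colon at 124 and 76 of 321. Over all loci above 0, 73.1% in the ileum and 61.4% in the colon were higher by any amount, so nothing particular to the groups is read from these counts. The groups described next were chosen after the values were seen.

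Upstream of Vil1, which encodes the actin bundler villin of the brush border, 4 ileum loci lay between chr1:74402550 and chr1:74408264. The farthest was at -4.33 in WT and -0.69 in IEC-OGT KO, and the other 3 were listed at 0 in WT and at -0.12, 3.24 and -0.39 in IEC-OGT KO. In the colon 3 loci there went from -2.74 to 0.54, from -2.82 to 0.71 and from -2.85 to 0.58. All 7 were higher in IEC-OGT KO. Vil1 itself was at 8.53 and 10.21 in the ileum and 8.17 and 8.60 in the colon, in an interval that also holds the rows of Usp37, Rqcd1 and Zfp142 and begins with Vil1 by the annotation. The Cre transgene of the IEC-OGT KO mice is driven by the promoter of this gene, and reads from a transgene that carries this promoter and from the mouse's own locus cannot be told apart in these tables.

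A group with high levels in IEC-OGT KO lay between the interval of Timm8b, a chaperone of mitochondrial protein import, and Dlat, a subunit of pyruvate dehydrogenase. The interval of Timm8b is shared with AU019823 and with Pih1d2, which ends nearest to the group in the annotation. In the ileum, loci from chr9:50626513 to chr9:50630868 went from -0.43 to 3.92, from 0.75 to 5.70 and from 0.23 to 3.74. Another 2 were listed at 0 in WT and at 2.74 and 6.78 in IEC-OGT KO. In the colon 8 loci lay there, and their WT levels ran from listed at 0 to 2.0 and their IEC-OGT KO levels from 2.16 to 7.14. In each tissue all loci of the group were higher in IEC-OGT KO, and both Timm8b and Dlat stayed within 2-fold. Timm8b was at 7.18 and 7.83 in the ileum and 7.15 and 7.51 in the colon, and Dlat at 4.50 and 4.19 and at 4.95 and 4.75. Pih1d2 was weak and more than 2-fold higher, at -0.37 and 0.82 in the ileum and -0.26 and 1.38 in the colon.

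Tnfrsf8 encodes CD30, a receptor of the tumour necrosis factor family found on activated lymphocytes. It was at -2.83 and 1.31 in the ileum and at -0.92 and 3.96 in the colon, and had 9 unnamed loci in ileum and 20 in colon. The 6 ileum loci above 0 had log2 changes from 2.57 to 5.82 (median 3.45), and 3 were listed at 0 in WT. The 14 colon loci above 0 had log2 changes from 2.41 to 6.28 (median 4.83), and 6 were listed at 0 in WT. Every one was higher in IEC-OGT KO. Of the colon loci 11 share the interval of Tnfrsf8, chr4:145266657-145357971, and 2 short loci just upstream of it, of 144 and 137 bases, reached 5.49 and 6.32 in IEC-OGT KO colon from 0.66 and 2.05.

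**Figure D5:**
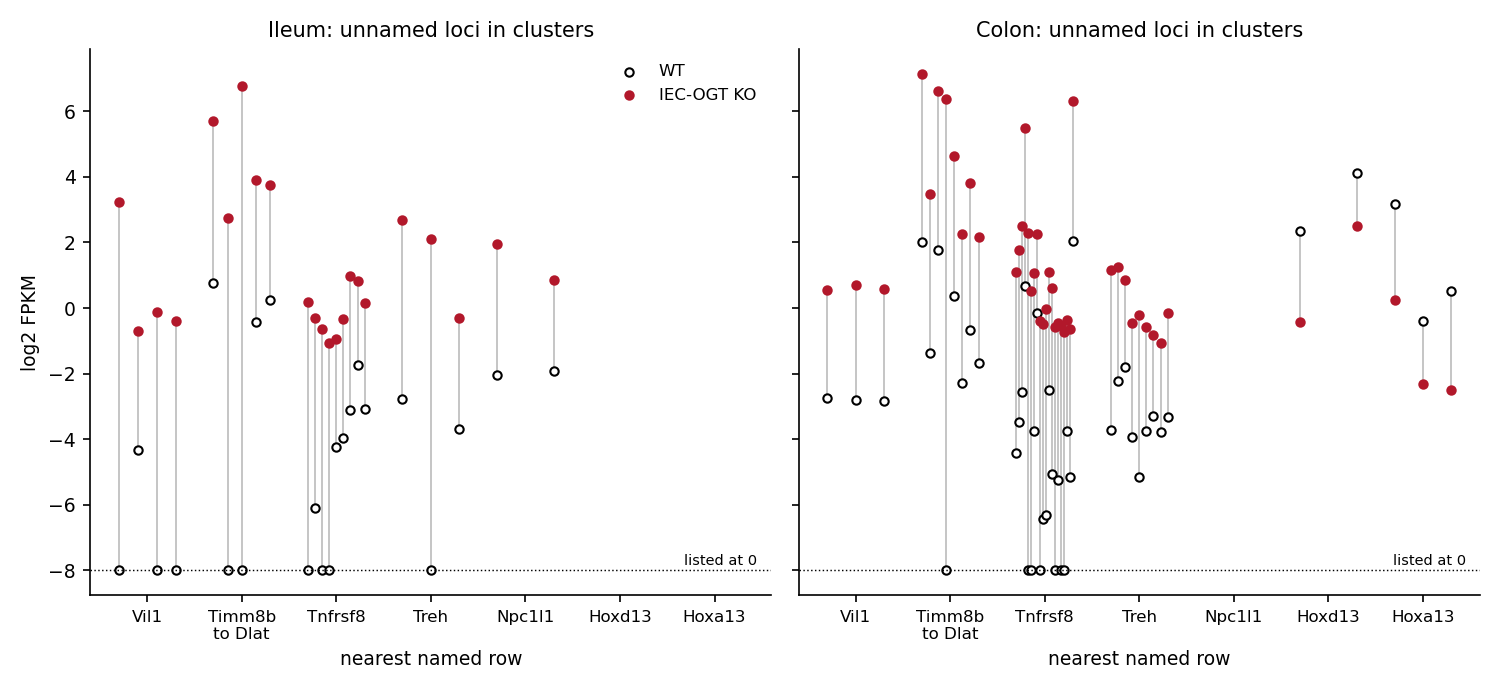
Log2 FPKM (vertical axis) in WT (open circles) and IEC-OGT KO (red) of every unnamed locus whose nearest named row is Vil1, Timm8b or Dlat, Tnfrsf8, Treh, Npc1l1, Hoxd13 or Hoxa13 (horizontal axis), with a line joining the genotypes of a locus; values listed at 0 are drawn on the dotted line. IEC-OGT KO is above WT at every locus of the first 5 groups and below it at the Hoxd13 and Hoxa13 loci of the colon.

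Some genes of absorption, chosen after the values were seen, had unnamed loci that were higher together with them in the ileum. Treh, the brush border enzyme that splits trehalose, was at 1.69 in WT ileum and 6.27 in IEC-OGT KO ileum. Its 3 upstream ileum loci went from -2.77 to 2.68, from -3.68 to -0.29 and from listed at 0 to 2.12. In the colon, where Treh was at -1.56 and 0.00, 9 loci had log2 changes from 2.50 to 4.93 (median 3.19). A second locus upstream of Npc1l1 (chr11:6234874-6236089) went from -1.93 to 0.84 in the ileum. A locus in the interval of Slc5a1, the sodium-glucose cotransporter, went from -1.16 to 0.59, and Slc5a1 from 6.51 to 9.14. In the colon Slc5a1 was at 5.97 and 5.17, and its 2 loci were at -1.04 and -1.94 (XLOC_018947) and at -0.50 and -1.60 (XLOC_019803). Upstream of Slc34a2, a sodium-phosphate cotransporter, a locus at chr5:53024226-53030389 was listed at 0 in WT ileum and at 5.13 in IEC-OGT KO, while the gene was at 4.17 and 7.62.

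Some loci were lower beside a gene that was lower in IEC-OGT KO ileum, as at 39.3% of the 201 pairs with such a gene. These examples were chosen after the values were seen. The locus 511 bases downstream of Slc37a2, a glucose-6-phosphate transporter, was at 1.77 in WT and listed at 0 in IEC-OGT KO, and Slc37a2 was at 6.53 and -2.69. Downstream of Hao2, a peroxisomal hydroxyacid oxidase, 2 loci were at 0.71 and 0.03 in WT and listed at 0 in IEC-OGT KO, with Hao2 at 6.21 and -2.08. A locus 739 bases downstream of Bmp3, a ligand of the bone morphogenetic protein family, was at 3.41 and 0.30, and Bmp3 at 4.20 and 1.19. A piece of a Pgm2l1 exon was at 4.37 and 0.79 in the ileum and at 3.21 and 0.49 in the colon, while Pgm2l1, a glucose-1,6-bisphosphate synthase, was at 1.97 and 0.06 and at 1.53 and 0.17.

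Homeobox genes, which give cells their position along the body axis, had 23 unnamed loci beside 11 Hox rows in the colon. Of these 8 were more than 2-fold lower, 4 higher and 11 within 2-fold (median -0.65, beside 0.38 over all colon loci), counted after the values were seen. Beside Hoxd13 (4.10 and 1.26) the locus in its promoter was at 4.12 in WT and 2.50 in IEC-OGT KO, and the locus before it at 2.36 and -0.42. Beside Hoxa13 (3.67 and 2.57) the locus over the long noncoding RNA Hottip, which is transcribed from the end of the HoxA cluster, was at 3.16 and 0.24. The other 2 loci beside Hoxa13 were at 0.52 and -2.50 and at -0.41 and -2.32. A locus in Hoxb5os downstream of Hoxb7 (3.97 and 3.23) was at 1.34 and -1.16. These 6 loci were more than 2-fold lower. Among the higher loci, that in Hoxd3os1 beside Hoxd8 (0.01 and 0.64) was at -1.63 and -0.17. All 5 loci beside Hoxb13 (7.43 and 6.65) stayed within 2-fold, with log2 changes from -0.45 to 0.29. In the ileum 11 loci lay beside Hox rows, 3 higher, 0 lower and 8 within 2-fold.

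Loci within exons of named long noncoding RNAs numbered 17 in ileum and 27 in colon. Of these 8 were more than 2-fold higher and 1 lower in the ileum, and 9 and 4 in the colon, beside 50.3% higher over all ileum loci and 31.1% over all colon loci. The names are 15 and 17, since several rows share an interval of Hnf1aos1 or Junos. Of the loci, 1 per tissue lies in Cct6a, a chaperonin subunit gene that GENCODE vM21 types as a processed transcript. The counts also hold the Bc1 locus of each tissue, which is a small RNA and was more than 2-fold higher in the colon only. Taco1os was at 0.56 and 4.02 in the ileum and at 0.12 and 1.88 in the colon, while Taco1, a mitochondrial translation activator, was at 4.45 and 4.55 and at 4.16 and 4.20. Gssos2 was at -1.86 and -0.19 in the ileum and -0.46 and 1.09 in the colon, and Gss, glutathione synthetase, at 6.71 and 6.86 and at 7.03 and 7.50. Both upstream RNAs were more than 2-fold higher in each tissue while the gene stayed within 2-fold. Etaa1os was at 0.62 and -1.27 in the ileum and at 0.91 and -0.20 in the colon, and Etaa1, an activator of the replication checkpoint, was lower too, at 1.86 and 0.68 and at 1.74 and 0.70. Hoxd3os1 was at -2.75 and 0.34 in the ileum with its neighbour Hoxd8 at -2.79 and 0.98. Hotairm1, a regulator RNA of the HoxA cluster, was at -0.54 and 1.25 beside Hoxa4 at 0.04 and 1.31.

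The enzyme that removes O-GlcNAc, encoded by Mgea5 (also named Oga), had an unnamed locus directly before it. The locus, 95 bases upstream in the ileum (chr19:45784591-45784835), was at -0.19 in WT and 2.70 in IEC-OGT KO. In the colon it was at -0.42 and 1.86, and a second unnamed row sharing the interval of the gene was at -0.82 and 1.61. The main Mgea5 row was at 4.46 and 2.44 in the ileum and 5.16 and 3.31 in the colon. Thus the main row of the gene was lower and the loci beside it higher in both tissues. A second ileum row of the name, with the same interval, was at -1.55 and 1.25. This second row is the one paired with the ileum locus in the pair counts, where both are higher. Ogt had no unnamed locus within 10 kb for which it was the nearest named row.

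Log2 changes of single loci lay between -6.66 and 8.82 in ileum and between -7.41 and 6.84 in colon. The most extreme rest on a level far below 1 FPKM in 1 genotype, so their size is uncertain. In the ileum the locus chr8:82748249-82754982, over the pseudogene Gm9655 near Zfp330, had the highest log2 change, going from -6.77 to 2.05, with Zfp330 at 4.25 and 4.35. A row in the interval of Dcp2, an mRNA decapping enzyme, was at -6.03 and 1.79 in the ileum and at -4.86 and 1.98 in the colon, with Dcp2 at 3.22 and 3.64 and at 3.06 and 3.71. A locus upstream of Insig2, which retains the sterol sensor complex in the endoplasmic reticulum, was at -4.40 and 1.96, with Insig2 at 4.05 and 5.05. The lowest log2 change of ileum loci averaging 1 FPKM or more was 292 bases downstream of Pde9a, a cyclic GMP phosphodiesterase, where the locus was at 5.96 and 1.18 and Pde9a at 5.82 and 6.66. A locus 370 bases upstream of Ccnd1, cyclin D1, was at 1.72 and -1.22 with the gene at 6.78 and 6.15. A locus of lower mean level in an exon of Samd12 (XLOC_008429) was at -0.17 and -6.83, the lowest log2 change in the ileum, and Samd12 itself was at 0.45 and -5.59. In the colon the 3 lowest lay in a row downstream of Glrx3, a glutaredoxin that carries iron-sulfur clusters. They went from -0.17 to -7.58 (XLOC_024362), from 0.28 to -5.0 (XLOC_024363) and from -0.18 to -5.74 (XLOC_024364), while Glrx3 stayed at 6.32 and 6.09. Farther up in level, a colon locus 125 bases upstream of Hrh1, a histamine receptor, was at 0.92 and -2.37, and Hrh1 at 1.73 and -0.09.

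At other genes the unnamed locus differed less than its neighbour or in the opposite direction. Ghrl, the hormone ghrelin, was at -0.65 in WT colon and 5.29 in IEC-OGT KO colon, and the locus in Gm26982, 10 bases from it, was at 1.27 and 1.11. Fam151a was at -6.72 and 1.75 in the ileum, and the locus 1383 bases from its interval was at -0.72 and 0.52. That interval is shared with Acot11, an acyl-CoA thioesterase, which is the gene next to the locus in the annotation and was at 3.68 and 4.23. The WT level of Fam151a was far below 1 FPKM, so the size of its log2 change is uncertain. The row Amt,Nicn1, Amt being an enzyme of glycine cleavage, was at 3.54 and 0.99 in the colon, while the locus upstream of it was at 4.20 and 6.43.

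Rows listed at 0 in a genotype, for which no fold can be given, were mostly at 0 in WT. In the ileum 109 loci were listed at 0 in WT and 10 in IEC-OGT KO, and in the colon 17 and 3. Over all rows the counts were 267 and 51 in the ileum, of which named rows made up 38 and 12, and 77 and 13 in the colon. Of the 109, 52 had a level of at least 1 FPKM in IEC-OGT KO. The ileum has 2 WT and 3 IEC-OGT KO libraries, and what part this has in the zeros was not tested. Where the neighbour of an ileum locus at 0 in WT was itself above 0 (106 loci), it was more than 2-fold higher in IEC-OGT KO at 54 and lower at 3. Over all ileum pairs a smaller share of neighbours was higher and a larger share lower. For ileum loci at 0 in IEC-OGT KO with a neighbour above 0 (9 loci), the neighbour was higher at 0 and lower at 7. A locus listed at 0 in 1 genotype may have entered the table only through the other. These counts of neighbours are therefore not read as a tie between locus and gene. Some of the zeros stood against high values in the other genotype at very short loci. A locus of 118 bases downstream of Tmem243 was listed at 0 in WT ileum and at 8.25 in IEC-OGT KO ileum, while the overlapping colon locus was at 8.99 and 9.27. Tmem243 was at 4.75 and 6.83 in the ileum and at 5.0 and 5.19 in the colon, and shares its interval with Dmtf1. A locus of 105 bases downstream of Btnl6, a butyrophilin-like gene, was listed at 0 and at 7.0, with Btnl6 at 6.41 and 7.73. In the colon a locus 75 bases upstream of Klf6, a zinc finger transcription factor, was listed at 0 in WT and at 4.43 in IEC-OGT KO, with Klf6 at 6.18 and 5.97.

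The highest levels were found at short loci. FPKM scales the count to the length, and the tables hold no counts, so how many reads lie behind these levels is unknown. Loci of at most 150 bases numbered 38 in ileum and 32 in colon, and those above 0 had a median level of 7.18 in WT and 7.08 in IEC-OGT KO ileum and of 5.63 and 6.22 in the colon. Over all loci above 0 the WT medians were -0.87 and -0.65. The highest of all was the A-rich part of Bc1, in which 70.1% of the 77 bases are A, at 12.10 and 12.97 in the ileum and at 10.89 and 12.34 in the colon. Bc1 is a small RNA made by RNA polymerase III and known from neurons, and short repeats related to it occur elsewhere in rodent genomes, so the level at this place is uncertain. Rows carrying the name Bc1 also lie on chromosome 10, 6 in the ileum and 11 in the colon. Their levels reached at most 5.08 and 5.32, and they moved in both directions, with log2 changes from -2.71 to 1.41 and from -1.37 to 1.87. An 81-base locus upstream of AI661453 was at 9.04 and 12.25 and an 80-base locus upstream of Il17ra at 7.84 and 11.23 in the ileum, with Il17ra, the interleukin 17 receptor, at 2.27 and 2.22. A 135-base locus near Fbxo5 was lower in both tissues but within 2-fold, at 10.43 and 9.52 and at 10.03 and 9.62.

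Other runs of neighbouring loci moved as blocks. In the ileum 7 loci upstream of Gm8979, 6 of them in its exons, had log2 changes from -2.11 to -1.53, and Gm8979 was at 3.49 and 1.47. In the colon 6 rows in the interval of Gvin1, a very large interferon-inducible GTPase, had log2 changes from -2.26 to -1.20, and Gvin1 was at 3.76 and 1.75. These genes lie in a family of near-identical copies, among which reads may be split, and the values are uncertain. In the introns of Impact, an imprinted regulator of translation, 7 ileum loci had log2 changes from -3.39 to -1.82, while Impact was at 0.84 and 0.87. Upstream of Itpk1, an inositol phosphate kinase, 6 of 10 ileum loci were above 0 in both genotypes with log2 changes from 2.68 to 4.70, the other 4 were listed at 0 in WT, and Itpk1 was at 6.49 and 7.60. Along the exon of Neat1, the RNA that builds nuclear paraspeckles, 8 colon loci had log2 changes from 0.33 to 1.86, and Neat1 was at 7.30 and 7.91.

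The neighbours were also grouped by lists of marker genes. Over all loci above 0, 50.3% were more than 2-fold higher and 12.4% lower in the ileum, and 31.1% and 13.4% in the colon. On the list of 30 absorptive enterocyte genes, 3 had unnamed loci in ileum and 2 in colon. They had 8 ileum loci, of which the 6 above 0 were all more than 2-fold higher (median 3.35, beside 1.01 over all ileum loci), and 11 colon loci, of which 9, all beside Treh, were higher and 1 lower (median 3.15, beside 0.38). On the Paneth cell list 3 genes had 9 ileum loci, 7 above 0 and all of those more than 2-fold higher (median 2.62). The log2 change of these neighbours, counted once per locus, had a median of -0.37, and 2 of 7 pairs had the same direction. That median does not describe Paneth cell genes at large, since Lyz1 and Defa24 were higher in IEC-OGT KO ileum. The Paneth cell list also holds Guca2b, which encodes the gut hormone uroguanylin and does not define Paneth cells. A locus 342 bases upstream of it went from -2.14 to 0.59 with Guca2b at 7.18 and 10.06, and one 9094 bases downstream of Mmp7, the matrilysin of Paneth cells, from -4.63 to 0.05 with Mmp7 at 6.27 and 5.90. Goblet cell neighbours had 5 ileum loci, none past 2-fold, and 11 colon loci, 6 higher and 4 lower, among them 1 in the interval of Clca1,Clca2,Clca4 at 2.16 and 1.05 and 1 in that of Sytl2, a regulator of vesicle docking, at -0.08 and 2.75.

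Neighbours of other lists had few loci, to be read beside the 50.3% higher and 12.4% lower over all ileum loci and the 31.1% and 13.4% over all colon loci. Cell cycle genes had 7 in the ileum, 2 higher and 2 lower, and 12 in the colon, 2 higher and 1 lower, such as the locus 9 bases before Pcna at 1.71 and 3.74 in the colon with Pcna at 6.72 and 6.61. Targets of p53 had 5 in the ileum, 3 higher and 1 lower, and 10 in the colon, 1 higher and 5 lower. These 10 colon loci lay beside 3 genes, 6 of the loci beside Bbc3 alone. Before Pmaip1, the proapoptotic gene Noxa, the locus was at -1.32 and 0.38 in the ileum with the gene at 2.50 and 4.15. The 2 ileum loci near Itgae, the integrin of intraepithelial lymphocytes, stayed within 2-fold while Itgae was at 0.03 and 2.81, and they lie in exons of another gene, Ncbp3. The same lymphocyte list had 4 colon loci, 3 of them more than 2-fold higher (median 1.27). Their neighbours were 2 genes, with a median log2 change of -0.68 counted once per locus. Colonocyte genes had 2 ileum loci, 1 above 0 and within 2-fold, and 9 colon loci, 2 higher and 0 lower. The locus in Gm13822 beside Oasl1, an interferon-induced gene, was at 0.53 and 1.89 in the ileum with Oasl1 at 2.77 and 6.41. Neighbours on the interferon list had 2 colon loci, 1 of them lower. Neighbours on the myeloid list had 2 loci in each tissue, 1 lower in ileum and 2 in colon. The stem cell list had 3 and 2, none past 2-fold. The enteroendocrine list had the Ghrl locus alone and the stromal list 1 locus, before Pdgfrb in the colon, at -2.81 and -0.80, and the tuft cell list had none.

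The loci nearest to the limit of 10 kb were as follows. In the ileum the 2 just inside, at 9964 and 9972 bases from Tbc1d9b and Mep1b, were at -0.33 and -3.34 and at -1.23 and -0.16, and the 2 just outside, at 10020 and 10034 bases from Xpnpep1 and Mapk3, at -1.92 and -0.40 and at -0.50 and 0.70. In the colon the 2 just inside, at 9986 and 10000 bases from Gpatch4 and Memo1, were at -2.40 and 1.12 and at 0.24 and 0.03. The 2 just outside, at 10012 and 10032 bases from Mir1957 and the row Ache,Ufsp1, were at -0.43 and -2.05 and at 3.61 and 2.59.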

How the data were processed

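RNA of ileum and colon IECs was sequenced as 11 libraries, and per the authors equal amounts of RNA were pooled for library construction. The submitters' processing notes name TopHat 1.0.0, Bowtie, Cufflinks and the build mm10, and the paper also names Trimmomatic and DESeq2. The authors deposited 1 table per tissue with 1 log2 FPKM value for each genotype, taken here as WT for the column headed control and IEC-OGT KO for the column headed comparison. No library values, errors or depths are in these tables, so no test was possible. A value of -10 stands for 0 FPKM. The tables also hold the authors' log2 ratio, q-value and mark of significance, which were not used. Each table has 1 emptied line, and 0 columns of per-sample values were left unused.

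The gap was counted between intervals of the same table, 0 where they overlap. Of named rows at an equal gap, the one with the nearer centre and then the earlier in the table was taken, and the side refers to that row. The log2 change is the deposited log2 FPKM of IEC-OGT KO minus that of WT, and rows listed at 0 were left out of changes. Starts count from 1. Strand, exons and introns came from GENCODE vM21 and promoter windows from RefSeq GRCm38.p6; no genome sequence was used, so the planned search for AATAAA and ATTAAA at locus ends was not run. Shares over loci have no interval, since loci are not replicates.

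Loci were named by a rule: per tissue the 10 largest rises and 10 largest falls at a mean of at least 1 FPKM, the 10 highest levels, the 5 largest differences from the neighbour, up to 3 per gene list, the 2 on either side of 10 kb, those nearest Ogt or Mgea5, and those listed at 0 in 1 genotype with at least 1 FPKM in the other. The text gives a selection of them, and the groups and sequences were added after values were seen. The members, the 13 gene lists and all alternatives were chosen with earlier results of these data known. The computation used pandas 2.3.3 and NumPy 2.4.6 for tables, SciPy 1.17.1 for correlations and matplotlib 3.10.9 for plots, under Python 3.11.15, and was tested on simulated data. One item that is withheld is not reported here.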

Additional observations from a re-analysis of the deposited data

How the results depend on the processing

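No paired analysis was possible because the tables hold 1 value per genotype, and for the same reason leaving out libraries could not be run. Depth per library is unknown. Over 15 results and 105 alternatives, 59 values stayed close to the reported one, 46 moved and 0 reversed; the cause was not tested. Values are given for the ileum and then the colon. With a limit of 1 kb, there were 1004 and 1535 loci, 498 and 435 more than 2-fold higher, 78 and 179 lower, and 159 and 100 pairs together past 2-fold. At 4-fold, 549 and 371 were higher, 101 and 96 lower, and 116 and 61 pairs together. At 1.5-fold, 594 and 501 pairs moved together and 690 colon loci were lower. With a mean of at least 1 FPKM, 280 and 240 were higher, 76 and 97 lower, and 87 and 45 pairs together. That filter keeps 33.02% and 30.78% of the loci above 0, so these counts fall with the number of loci. In the classes of 1 to 2, 2 to 4 and over 4 FPKM, 40.45% to 43.02% and 25% to 25.14% of loci were more than 2-fold higher. Named rows of those classes gave 10.86% to 23.75% and 3.56% to 15.11%. With 1 added to FPKM before the log, 272 and 160 were higher and 52 and 47 lower. The median level difference over both genotypes (-4.15 and -4.24) became -3.92 and -3.92 within 1 kb, -3.06 and -3.22 at 1 FPKM, -4.27 and -4.41 without overlapping loci, -2.87 and -3.02 with 1 added and -3.90 and -3.99 with 0.1 added. The colon share with the same direction was 58.5% at 1 FPKM. The r with the neighbour was 0.37 with 1 added and 0.46 with 0.1 added in the ileum, and in the colon 0.46 within 1 kb, 0.37 with the closest locus per gene, 0.37 without overlapping loci and 0.35 with 1 added. Further alternatives were chosen after seeing the data. Without shared intervals, r between ileum and colon was 0.62. Where several named rows hold the nearest interval, taking the one of the highest level gave another row for 208 and 275 loci, a level difference of -4.42 and -4.48, the same direction in 64.4% and 60.2%, r = 0.45 and 0.43, and 342 and 209 pairs together past 2-fold.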
